A study of Mus musculus with 4 samples.

Results

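The heat shock proteins Hspa1a, Hspa1b, Hspa8, Hsp90aa1, Hsp90ab1, Hspb1, Hsph1, Dnajb1, Hspd1 and Hspe1 were followed in mouse neural stem/progenitor cells (NSPCs) with and without PJ34, an inhibitor of poly(ADP-ribose) polymerases. They were chosen by name. Of the 10 genes, 9 had a probe under that name on the array, and Hspa1b had none. These 9 genes had 14 of the 55681 probes of the array, and all 9 were among the 20233 genes that were tested.

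RNA was compared on 4 two-colour arrays, 2 of wild-type and 2 of Trp53-/- NSPCs. All 4 arrays are labelled as strain Slc:ICR and embryonic day 13.5, and the medium was a neurosphere medium with B-27, EGF and FGF-basic. On each array, RNA of cells given 20 μM PJ34 was labelled with Cy5, and RNA of untreated cells of the same genotype with Cy3. Replicates were separate RNA preparations (n = 2 arrays per genotype), the length of the PJ34 treatment for the arrays is not given in the sources used here, and the Trp53-/- cells trace back to 1 heterozygous mouse line. The dyes were never swapped, so within a genotype a preference of a dye for a probe cannot be told apart from an effect of PJ34, whereas it cancels in the difference between genotypes.

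Heat shock proteins are chaperones that bind unfolded proteins and help them fold, hold them soluble or pass them on for degradation. Hsp70 proteins (Hspa1a, Hspa1b, Hspa8) work in an ATP-driven cycle that J-domain proteins such as Dnajb1 start and Hsp110 proteins such as Hsph1 reset by exchanging the nucleotide. Hsp90 proteins finish the folding of kinases and receptors, small heat shock proteins such as Hspb1 hold unfolded chains, and Hspd1 with its lid Hspe1 forms the folding chamber of mitochondria. In stressed cells, the transcription factor HSF1 binds repeats of the bases GAA and TTC in the promoters of many of these genes.

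Promoters from RefSeq (GRCm38.p6, 250 bases before to 50 after a start) were at hand for 7 of the 10 genes, and the motifs GAANNTTC or TTCNNGAA were searched in them on both strands. The 7 genes had 10 promoters, of which 7 (70%, of 6 genes) held at least 1 match, against 15.1% of all 32851 promoters. A longer run of 3 such units (GAA and TTC in turn, each 2 bases apart), which contains the short motifs, was matched in 4 of the 10 (40%, of Hsph1, Hspd1 and Hspe1), against 0.603% of all promoters. The 2 Hsph1 promoters overlap and hold the same stretches, and Hspd1 and Hspe1 share theirs, so both member shares count some stretches more than once. Neither of the 2 Dnajb1 promoters held a match, nor did the second of the 2 Hspd1 promoters. The stretches are shown because they are the letters HSF1 is known to read, with the match in capitals.
Hspa1a, chr17:34972242-34972271, minus strand: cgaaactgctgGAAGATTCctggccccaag
Hspb1, first match, chr5:135887791-135887820, plus strand: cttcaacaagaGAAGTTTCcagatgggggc
Hspb1, second match, chr5:135887811-135887840, plus strand: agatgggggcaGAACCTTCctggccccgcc
Hsph1, long match, chr5:149636279-149636308, minus strand: gctgcagaTTCTGGAAAGTTCtcctcagta
Hspd1, long match, chr1:55088053-55088082, minus strand: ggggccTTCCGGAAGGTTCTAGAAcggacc

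The window of Hspa1b (chr17:34959324-34959353), the near-identical neighbour of Hspa1a, carried the same 30 letters as that of Hspa1a. In both Hsp70 genes the match began 104 bases before the start. In Hspb1 the matches began 117 and 97 bases before it. Hspd1 and Hspe1 lie head to head and share 1 stretch. It began 144 bases before the first of the 2 listed Hspd1 starts. Read on the other strand, it began 89 bases before the start of Hspe1. The long match of Hsph1 began 15 bases after the first of its 2 listed starts. A separate short match of Hsph1, not shown, began 54 bases before the first start and 33 bases before the second. A match is a description of the letters, and binding was not measured.

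Neural progenitor markers were well above background for 10 of 10 genes in every channel. Trp53 was measured at log2 intensities of 8.28 and 8.51 in the untreated wild-type cells and 7.56 and 7.82 in the untreated Trp53-/- cells. On Trp53-/- replicate 2 the Y-linked genes Eif2s3y and Ddx3y were detected above background with PJ34 (log2 ratios of 4.22 and 3.12) but not in the control channel, and Xist had a ratio of -1.39. The treated and untreated cells of that array therefore differed in sex-linked RNA, and the counts and called heat shock proteins of the Trp53-/- cells are given with and without it. Per array, 21515 to 24553 probes were well above background in the control channel and 26099 to 27166 in the PJ34 channel, and no spot was saturated.

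Of the 8 heat shock proteins measured above background in both channels, 5 passed a false discovery rate (Storey's q) of 0.05 in 1 genotype each, with mean ratios of at most 0.38 in size on the log2 scale. In wild-type NSPCs, Hsph1, Hsp90aa1 and Dnajb1 were lower with PJ34 (3 of 8). In Trp53-/- NSPCs, Hspd1 was higher and Hspb1 lower (2 of 8). Hspa1a was above background only with PJ34 and is given as a limit, and with it 4 and 3 of the 9 genes were past q. Of all genes, 24.7% passed in wild-type (13.5% higher and 11.2% lower) and 23.2% in Trp53-/- cells (12.7% higher and 10.4% lower). Over the 15426 genes that passed a stricter filter, with both channels above background, the same 3 and 2 of 8 passed q, against 34.9% and 28.8% of all, and the median log2 ratio of the 8 genes was -0.072 in wild-type and -0.12 in Trp53-/- cells, against 0.021 and 0.017 over all. By the study's criteria (limma, p and q below 0.05 and more than 2-fold), 0 of the 9 genes were called in either genotype, against 0.499% and 0.361% of all genes, whereas 4 and 3 of the 9 had an unadjusted p below 0.05 (31.7% and 30.9% of all genes).

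**Figure D1:**
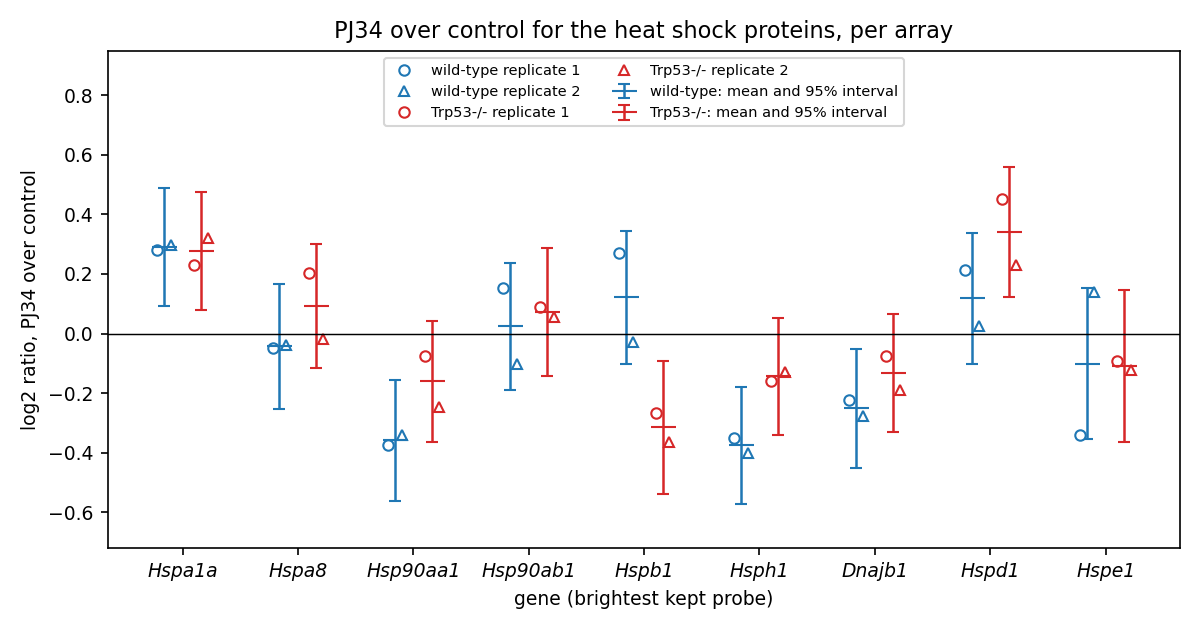
Log2 ratio of PJ34 over control on each array for the 9 heat shock proteins, read from the brightest probe of each gene, with the mean and its 95% interval from limma (n = 2 arrays per genotype), where those of Hspa1a are against a control channel not clear of background. Hsph1 and Hsp90aa1 lie lowest in wild-type (-0.38 and -0.36), Hspd1 lies highest in Trp53-/- cells (0.34), and the wild-type arrays of Hspe1 lie on opposite sides of 0.

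Hspa1a encodes the Hsp70 that heat and other stress induce. Its single probe (mm9 chr17:35107117-35107176) is shown because it was the only one for the inducible Hsp70 genes, and Hspa1b is so similar in sequence that its RNA may also bind there.
Hspa1a probe, 60 bases: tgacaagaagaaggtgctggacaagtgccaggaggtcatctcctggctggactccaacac
The log2 ratios were 0.28 and 0.30 in wild-type and 0.23 and 0.32 in Trp53-/- cells. Over all probes, more were well above background in the PJ34 (Cy5) than in the control (Cy3) channel on each of the 4 arrays. For Hspa1a the PJ34 channel was well above background on all 4 arrays and the control channel was not, so the fold after loess is a lower limit. It was at least 1.16-fold in wild-type (q = 0.0245 in the limma fit) and at least 1.17-fold in Trp53-/- cells (q = 0.0301), where the control was set, on each array, to the dimmest signal still called above background or to the probe's own signal if that was brighter. Hspa1a passed the filter on dim probes only through the PJ34 channel, in which it was high, so that these q are a description and no test. With the scanner software's own log ratios its wild-type mean was 1.79. With median centring its means were -0.15 in wild-type and -0.29 in Trp53-/- cells, so the lower limit depends on the normalization. Without Trp53-/- replicate 2 its ratio in those cells was 0.23 (q = 0.279).

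Hspa8 encodes the Hsp70 that cells make at all times. The brightest of its 3 probes (chr9:40613223-40613282) gave ratios of -0.047 and -0.039 in wild-type and 0.20 and -0.018 in Trp53-/- cells. The means were -0.043 ± 0.094 (q = 0.41) and 0.092 ± 0.094 (q = 0.267), and the 95% intervals reached from -0.25 to 0.17 and from -0.12 to 0.30. The other 2 probes were lower with PJ34 on all 4 arrays, with wild-type means of -0.21 (q = 0.0792 over all probes) and -0.25 (q = 0.0585). The 3 probes therefore agreed in sign in wild-type and not in Trp53-/- cells.

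Dnajb1, the J-domain partner that loads clients on Hsp70, was measured by 1 probe (chr8:86135660-86135719). Its ratios were -0.22 and -0.28 in wild-type and -0.077 and -0.19 in Trp53-/- cells. It fell in wild-type by 0.25 ± 0.090 on the log2 scale (q = 0.0420), to 0.84 of the control level. The Trp53-/- mean was -0.13 ± 0.090 (q = 0.171), and the difference between genotypes of -0.12 had a 95% interval from -0.40 to 0.16. Dnajb1 was close to the threshold and no longer passed it in 8 of 17 alternative settings.

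Hsph1, the Hsp110 that exchanges the nucleotide of Hsp70, had the lowest mean ratio of the 9 genes in wild-type cells. Its brighter probe (chr5:150419744-150419803) gave -0.35 and -0.40 in wild-type and -0.16 and -0.13 in Trp53-/- cells. It fell in wild-type by 0.38 ± 0.088 (q = 0.00801), to 0.771 of the control level. The Trp53-/- mean was -0.14 ± 0.088 (q = 0.148). The second probe (chr5:150420110-150420169) gave -0.33 in wild-type (q = 0.0150) and -0.19 in Trp53-/- cells (q = 0.0891). By the brighter probe, the difference between genotypes was -0.23 (95% interval -0.51 to 0.045, q = 0.326). Among 15410 genes detected in every channel of every array, those whose ratios lay nearest to Hsph1 were Fkbp2, Ash2l and Eif4b, at Euclidean distances of 0.0171, 0.0396 and 0.0538 over the 4 arrays.

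Of the 2 cytosolic Hsp90 genes, Hsp90aa1 is the stress-inducible one and Hsp90ab1 the constant one. Hsp90aa1 (chr12:111929248-111929307) gave -0.38 and -0.34 in wild-type and -0.075 and -0.25 in Trp53-/- cells. It fell in wild-type by 0.36 ± 0.092 (q = 0.0117), to 0.78 of the control level, and the Trp53-/- mean was -0.16 ± 0.092 (q = 0.131). Hsp90ab1 (chr17:45704788-45704847) gave 0.15 and -0.10 in wild-type and 0.089 and 0.056 in Trp53-/- cells. Its wild-type arrays had opposite signs, and neither mean passed the test (0.025 ± 0.096, q = 0.459, and 0.073 ± 0.096, q = 0.319).

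Hspb1 encodes a small heat shock protein that holds unfolded chains and binds actin, and it had the largest difference between genotypes of the 8 genes measured in both channels. Its ratios (chr5:136365366-136365425) were 0.27 and -0.028 in wild-type and -0.27 and -0.36 in Trp53-/- cells. It fell in Trp53-/- cells by 0.31 ± 0.10 (q = 0.0293), to 0.804 of the control level, and the wild-type mean was 0.12 ± 0.10 (q = 0.231). The difference between genotypes of 0.44 (95% interval 0.12 to 0.75) had an unadjusted p of 0.0112 by limma and a q of 0.135. Without Trp53-/- replicate 2 the ratio in those cells was -0.27 (q = 0.244). Over all 9 genes, 0 passed q by limma in the difference between genotypes and 1 had an unadjusted p below 0.05. Of all genes, 1.77% passed q (1.29% higher and 0.474% lower in wild-type), 0.479% were also over 2-fold, and 14.3% had an unadjusted p below 0.05.

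The mitochondrial chaperonin Hspd1 and its lid Hspe1 were read from 1 and 3 probes. Hspd1 (chr1:55134697-55134756) gave 0.21 and 0.024 in wild-type and 0.45 and 0.23 in Trp53-/- cells. All 4 arrays were higher with PJ34, and Hspd1 rose in Trp53-/- cells by 0.34 ± 0.099 (q = 0.0207), or 1.27-fold, with a wild-type mean of 0.12 ± 0.099 (q = 0.234). Without Trp53-/- replicate 2 it was 0.45 (q = 0.0499), and without replicate 1 it was 0.23 (q = 0.215). Hspe1, by the brightest of its 3 probes (chr1:55148026-55148085), gave -0.34 and 0.14 in wild-type and -0.092 and -0.12 in Trp53-/- cells, and neither mean passed the test (q = 0.307 and 0.276). A second probe that overlaps the first over 57 bases gave -0.34 and 0.080 in wild-type, and the last, elsewhere in the transcript, -0.12 and 0.18. On all 3 probes the wild-type arrays therefore had opposite signs.

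Leaving out either wild-type array left 0 of the 9 genes past q in wild-type cells, where 12% (without replicate 1) and 12.8% of all genes passed, and the lowest q was then 0.0519 (Hsph1, without replicate 1). Leaving out Trp53-/- replicate 1 left 0 (12.4% of all genes) and leaving out replicate 2 left 1, Hspd1 (7.74% of all genes), in Trp53-/- cells. In these fits a single array stands for its genotype and is assumed to vary like the others.

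The ratio depended on brightness before normalization, and most heat shock proteins are among the brightest probes. Of the 9 genes, 5 (Hspa8, Hsp90aa1, Hsp90ab1, Hspd1 and Hspe1) lay in the brightest 10% of all genes tested, and Hspa1a lay in the dimmest 10%. With each array only centred on its median, the median ratio of all genes rose from -0.40 in the dimmest to 0.32 in the brightest 10% in wild-type, and from -0.59 to 0.43 in Trp53-/- cells, relative to a median of all genes of 0.46 and 0.63. After loess, which removes such a trend, the medians of all 10 brightness classes lay between -0.011 and 0.081. With median centring, Hspa8, Hsp90ab1 and Hspd1 passed q as higher in wild-type and none as lower, and in Trp53-/- cells 6 passed as higher and Hspa1a and Hspb1 as lower, where 49.9% and 69.6% of all genes passed. The Hsph1, Hsp90aa1 and Dnajb1 ratios in wild-type were then -0.19, -0.082 and -0.022, still below 0, and none passed q, and Hspa1a turned to -0.15.

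**Figure D2:**
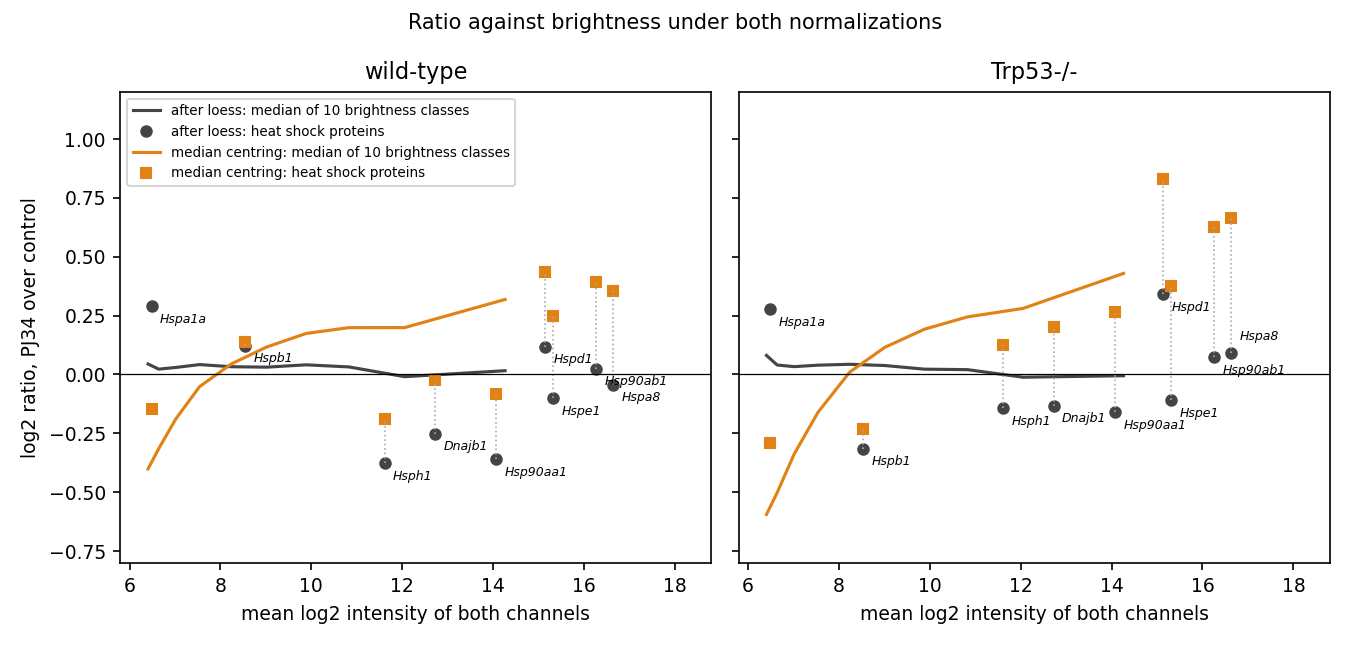
Mean log2 ratio of PJ34 over control against mean log2 intensity for the 9 heat shock proteins (points) and the median of each of 10 brightness classes of all 20233 genes (lines), after loess and with median centring, in wild-type (left) and Trp53-/- cells (right). The median-centred lines rise to 0.32 and 0.43 in the brightest class while the loess lines stay near 0, and dotted lines join the values of a gene under both.

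Untreated levels were compared between genotypes in the control channel, on the log2 intensity scale and each probe only with itself. In bulk RNA, fewer cells of a type and less RNA per cell cannot be told apart. Both wild-type arrays were scanned before both Trp53-/- arrays, so scan time and genotype cannot be told apart here. The untreated samples also differed in Y-linked RNA with genotype, since Eif2s3y measured 8.96 and 8.47 in wild-type, and 6.01 and 6.24, not well above background, in Trp53-/- cells. Of the 9 genes, 0 passed q by limma and 0 had an unadjusted p below 0.05, against 8.32% of all genes that passed q (4.17% higher and 4.15% lower in Trp53-/- cells), 3.97% that were also over 2-fold and 23.7% with such a p.

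Hsp90aa1 measured 14.11 and 14.05 in wild-type and 14.37 and 14.36 in Trp53-/- cells. The difference of 0.29 (95% interval -0.095 to 0.67) had a q of 0.183. Hspe1 measured 15.43 and 15.54 in wild-type against 15.19 and 15.30, a difference of -0.24 (q = 0.239). Its probes disagreed in size, since the overlapping probe differed by -0.40 (q = 0.126 over all probes) and the one elsewhere in the transcript, at 13.36 and 13.10 against 12.20 and 11.73, by -1.26 (q = 0.0272 over all probes), all 3 lower in Trp53-/- cells. With the mean of its probes, Hspe1 passed q. Hspa8 measured 16.64 and 16.76 against 16.61 and 16.48 (difference -0.16, q = 0.345), and Hspa1a 6.29 and 6.30 against 6.38 and 6.45, none of them clear of background. Hsph1 differed least, at 11.76 and 11.79 against 11.77 and 11.67 (difference -0.058, 95% interval -0.45 to 0.33).

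For the other 4 genes, the 2 wild-type arrays stood apart from each other. Hspb1 measured 7.19 and 9.01 in wild-type against 9.02 and 9.14 in Trp53-/- cells, a difference of 0.98 (95% interval -0.34 to 2.30, q = 0.186). Without wild-type replicate 1 that difference was 0.071, and without wild-type replicate 2 it was 1.89, so 1 array sets its size. Hsp90ab1 measured 16.55 and 15.84 in wild-type against 16.34 and 16.23, and Hspd1 15.34 and 14.62 against 15.15 and 15.06. For both, wild-type replicate 1 lay above and replicate 2 below the Trp53-/- arrays. Dnajb1 ran the other way, at 12.53 and 13.02 in wild-type against 12.79 and 12.98.

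Markers of other neural cells moved with some of these values and against others. The summed intensity of 6 astrocyte markers was lower in the untreated cells of wild-type replicate 1 (10.89 on the log2 scale) than on the other 3 arrays (11.72 to 11.73), and Gfap was not well above background there, the same array in which Hspb1 was low. The sum hides differences of single markers between genotypes. By limma, 4 of the 6 passed q as higher in untreated Trp53-/- cells, against 4.17% of all genes. These were Gfap (2.38), S100b (1.89), Slc1a2 (0.83) and Aqp4 (0.66). The other 2 were lower and did not pass, Gja1 (-0.10) and Aldh1l1 (-0.58), of which Aldh1l1 was the brightest of the 6. With PJ34 the astrocyte sum was 11.66 on Trp53-/- replicate 1. It was 12.26, above its untreated value, on Trp53-/- replicate 2, although Hspb1 fell there. The summed intensity of 6 oligodendrocyte markers was 11.09 and 11.79 in untreated wild-type and 13.19 and 13.29 in untreated Trp53-/- cells, and with PJ34 it was 12.39 and 12.64 in Trp53-/- cells, in which Hspb1 also fell. On wild-type replicate 1 the oligodendrocyte sum was 11.02 with PJ34, below its untreated value, although Hspb1 rose there. The summed intensity of 8 neuron markers was 13.31 in untreated wild-type replicate 1 and 12.74 to 12.93 on the other arrays. Of the 8, Rbfox3 (1.24) and Syt1 (0.93) passed q by limma as higher in untreated Trp53-/- cells and Snap25 (-0.73) as lower, against 4.17% and 4.15% of all genes. The part of all these markers in the Hspb1 values was not tested. Of 5 microglia markers, Aif1, Cx3cr1 and Ptprc were not well above background in any channel, whereas Csf1r and Itgam were on all 4 arrays in both channels. Their untreated Trp53-/- minus wild-type differences were -0.82 for Csf1r (q = 0.0511) and -0.68 for Itgam (q = 0.0537), and the summed intensity of the 5 was 12.57 and 12.81 in untreated wild-type and 12.12 and 11.90 in untreated Trp53-/- cells.

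**Figure D3:**
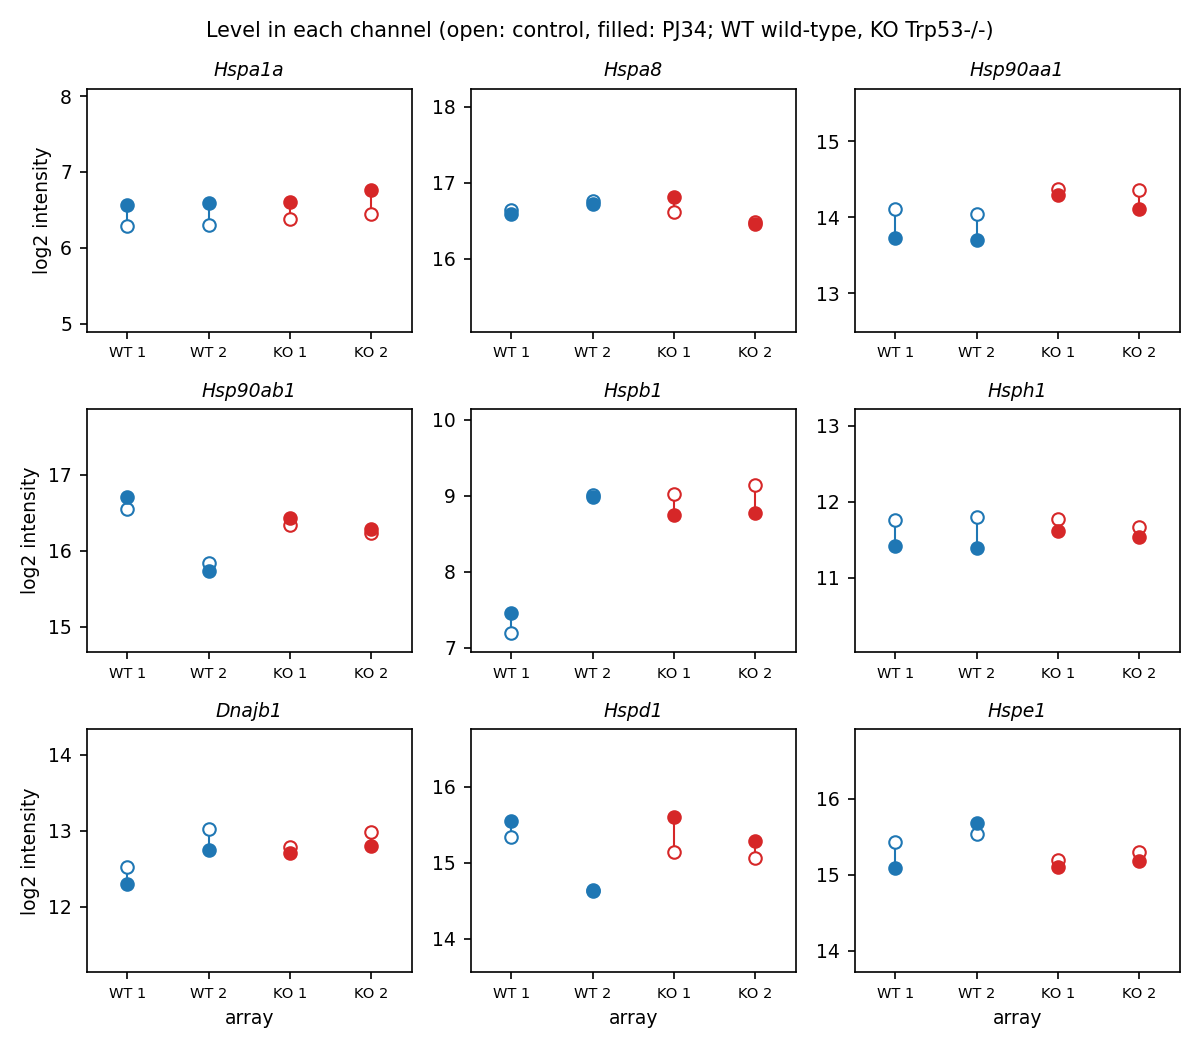
Log2 intensity of each heat shock protein in the control (open) and PJ34 (filled) channel of the 4 arrays, with the same span on every y axis. Hspb1 stands out in wild-type replicate 1 (7.19 untreated, against 9.01 to 9.14 on the other arrays), and the gap between channels is narrower than the gap between the wild-type arrays for Hspb1, Hsp90ab1, Hspd1 and Dnajb1.

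**Figure D4:**
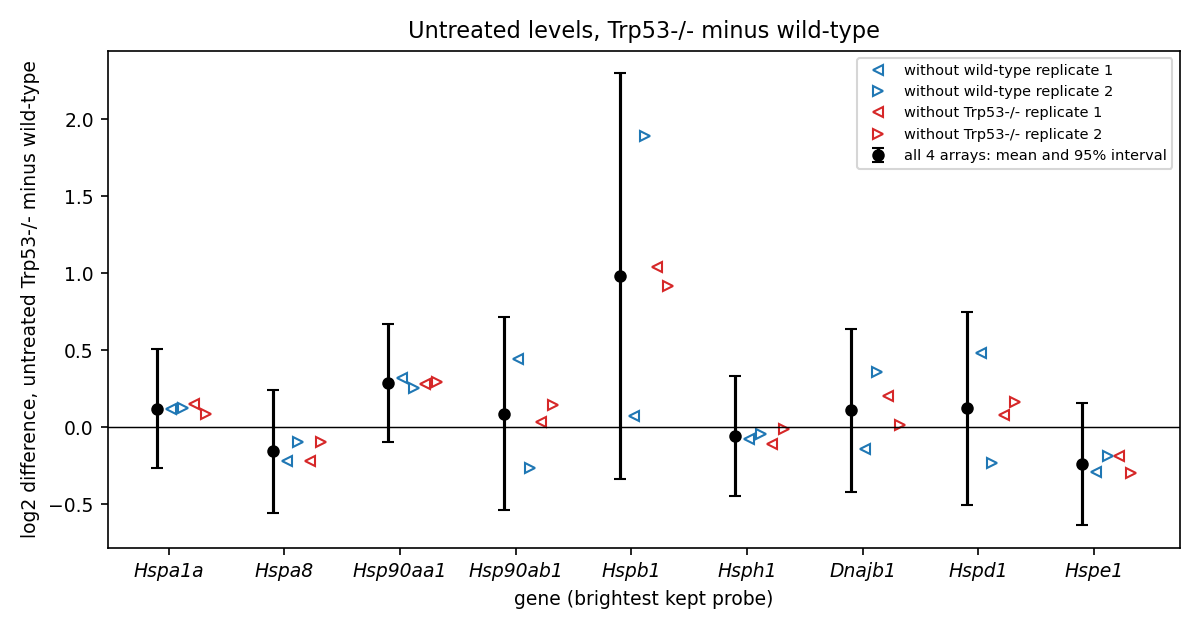
Untreated Trp53-/- minus untreated wild-type, as log2 difference with its 95% interval from limma, and the same difference with 1 array left out. The Hspb1 difference moved between 0.071 and 1.89 with the wild-type array left out, and those of Hsp90ab1, Dnajb1 and Hspd1 changed sign.

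The partners and relatives of these proteins were read from 9 further lists of 86 genes, of which 77 were tested. In wild-type cells, 14 of the 77 (18.2%) passed q, 4 higher and 10 lower with PJ34, and in Trp53-/- cells 12 (15.6%), 2 higher and 10 lower, against the 24.7% and 23.2% of all genes given above. With median centring, 27 passed in wild-type (19 higher and 8 lower) and 55 in Trp53-/- cells (47 higher and 8 lower), where 49.9% and 69.6% of all genes did. Without Trp53-/- replicate 2, 3 of the 77 passed in Trp53-/- cells, Cryab (-0.91), Hspb8 (-0.48) and Dnajb5 (-0.80), against 7.74% of all genes. Each gene described below as past q with PJ34 kept its sign in all 17 alternative settings, median centring included. The call was often lost for those near the threshold, since in wild-type Dnaja3 passed in 6 and Hsf1 in 9 of the 17, and in Trp53-/- cells Dnajb4 passed in 9 and Fkbp5 and Unc45a in 10.

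Among the heat shock factors and their regulator, Hsf1, the main activator of the response, fell in wild-type by 0.26 ± 0.089 (q = 0.0336), and Hsbp1, which binds HSF1 and restrains it, rose by 0.40 ± 0.098 (q = 0.00957). In Trp53-/- cells their means were -0.056 and 0.14 and did not pass. Hsf2 gave -0.086 and 0.072. Hsf4 and Hsf5 did not pass the filter.

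Of 12 other heat-inducible HSF1 targets, 2 fell in wild-type cells, Cryab (a small heat shock protein) by 0.58 ± 0.090 (q = 0.000993) and Ahsa1 (the activator of the Hsp90 ATPase) by 0.43 ± 0.089 (q = 0.00437), and none rose. In Trp53-/- cells Cryab fell by 0.86 ± 0.090 (q = 0.000241) and Hspb8 by 0.38 (q = 0.0123), whereas Fkbp4, an Hsp90 partner in steroid receptor folding, rose by 0.34 (q = 0.0192). The Cryab arrays were -0.54 and -0.61 in wild-type and -0.91 and -0.82 in Trp53-/- cells.

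Of 8 Hsp90 cochaperones, all 8 had a wild-type mean below 0 (3 of 8 with median centring) and 2 passed, Fkbp5 (-0.58, q = 0.000957) and Ptges3 or p23 (-0.41, q = 0.00634). In Trp53-/- cells Unc45a (-0.28, q = 0.0329) and Fkbp5 (-0.27, q = 0.0336) passed, and Aarsd1 (0.16) and Tomm34 (0.12) lay highest. Of 8 nucleotide exchange factors and partners of Hsp70, 0 passed q by limma in either genotype and 0 and 1 had an unadjusted p below 0.05, with wild-type means from -0.20 (Bag5) to 0.11 (Bag6) and Trp53-/- means from -0.092 (Bag1) to 0.22 (Bag4).

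Of 14 other J-domain proteins, Dnaja4 rose in both genotypes, by 0.64 ± 0.096 in wild-type (0.52 and 0.76, q = 0.000811) and by 0.43 ± 0.096 in Trp53-/- cells (0.43 and 0.42, q = 0.00721). Dnajc21 fell in wild-type by 0.35 (q = 0.0250). In Trp53-/- cells Dnajb5 fell by 0.74 (q = 0.000507), Dnajb2 by 0.36 (q = 0.0114), Dnajb12 by 0.32 (q = 0.0214) and Dnajb4 by 0.26 (q = 0.0442). Of 5 other Hsp70 and Hsp110 genes, none passed in wild-type by limma, where 1 had an unadjusted p below 0.05 (Hspa4, -0.23, q = 0.0547). That Hspa4 value changed sign with median centring and with the mean of its probes. Hspa2 fell in Trp53-/- cells by 0.30 (q = 0.0367).

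Of 3 other small heat shock proteins that were tested, Hspb6 fell in both genotypes, by 0.41 (q = 0.00520) and 0.37 (q = 0.00976). Hspb11 rose in wild-type by 0.31 (q = 0.0297) and gave -0.15 in Trp53-/- cells, and Hspb9 gave 0.055 and 0.026. Of 14 subunits of the cytosolic TRiC/CCT chaperonin and of prefoldin, Tcp1 fell by 0.30 (q = 0.0202) and Pfdn6 by 0.28 (q = 0.0310) in wild-type, and 0 passed by limma or had an unadjusted p below 0.05 in Trp53-/- cells, where they ranged from -0.14 (Cct4) to 0.15 (Cct2). Of 10 other mitochondrial chaperones and proteases, the protease Htra2 fell in wild-type by 0.48 (q = 0.00408) and Dnaja3 rose by 0.24 (q = 0.0440). Hspa9, the Hsp70 that feeds Hspd1, gave -0.093 and -0.095.

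**Figure D5:**
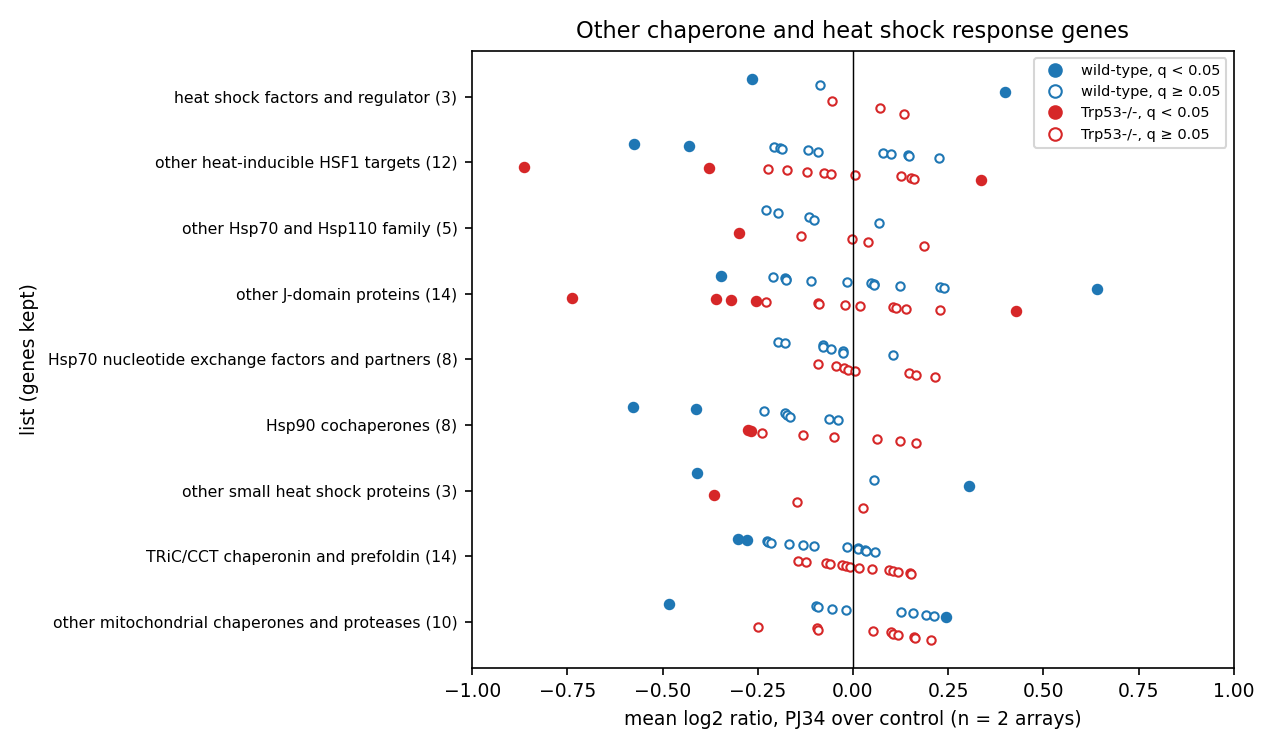
Mean log2 ratio of PJ34 over control (n = 2 arrays per genotype) for 77 other chaperone and heat shock response genes by list, filled where q was below 0.05. Cryab (-0.86) lies lowest, in Trp53-/- cells, and Dnaja4 (0.64) highest, in wild-type cells, and no gene reached a 2-fold change.

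In untreated cells, 4 of the 77 genes were higher in Trp53-/- than in wild-type NSPCs and 0 were lower (5.19% in all, against the 8.32% of all genes given above). These were Hspb6 (1.08, q = 0.0491), Dnaja4 (0.82, q = 0.0347), Hspa2 (0.75, q = 0.0434) and Dnajb4 (0.72, q = 0.0480), and Hspb6 alone was over 2-fold. They passed in 5, 9, 7 and 6 of 13 alternative settings, in that order. Without either Trp53-/- array 0% of all genes passed, so those fits say nothing of the 77, and by the Benjamini-Hochberg adjustment none of the 77 passed, against 3.47% of all genes.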

How the data were processed

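Two-colour arrays (Agilent SurePrint G3 Mouse GE) were scanned and extracted by the authors with Feature Extraction 10.7.3.1. Used here were the deposited intensity values, namely each spot's mean signal and local background median per channel. The deposited log10 ratios, converted to log2, served as an alternative. A deposited table of 4 normalized columns named by number was not used.

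Background was corrected with normexp (offset 50) and ratios were normalized by loess (limma 3.58.1, R 4.3.3), with outlier spots (228 to 276 per array) left out. Probes with a channel clear of background on each array of a genotype were kept (27043 probes, 48.6%), and a gene was read from its brightest probe. limma was fitted on all 20233 genes with a mean per genotype. Untreated levels came from the Cy3 channel after Aquantile. The code was tested on simulated data. Probe positions are on mm9, per the file headers. Symbols were updated through RefSeq for 26300 of 55681 probes.

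The members and lists were chosen with earlier results of these data known. All members are named. Of each other list, genes called in any contrast and those with the 2 largest and 2 smallest means per genotype were eligible to be named, and other genes past q were added after their values were seen. The number of arrays limits the precision. Each array comes from its own RNA preparation.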

Additional observations from a re-analysis of the deposited data

Results flagged for a closer look

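The PJ34 response of Dnajb5, a J-domain protein, differed between genotypes. The ratios were -0.069 and -0.15 in wild-type and -0.80 and -0.67 in Trp53-/- cells, and the difference of 0.63 had a q of 0.034 by limma, the only one of the 77 other chaperone genes to pass (1.3%, against 1.77% of all genes, so a share near the background). It lay between 0.56 and 0.69 in 16 alternative settings and passed q in 9 of them.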

How the results depend on the processing

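Of 563 values of single genes under alternative settings, 494 kept their sign and their side of the q threshold, 31 no longer passed, 10 newly passed and 28 changed sign. With median centring the values that changed sign were Hspa1a (-0.15), Hspa8 (0.35) and Hspe1 (0.25) in wild-type, Hspa1a (-0.29), Hsp90aa1 (0.27), Hsph1 (0.12), Dnajb1 (0.20) and Hspe1 (0.38) in Trp53-/- cells, and Hspe1 in the difference between genotypes (-0.13). In Trp53-/- cells 8 genes then passed q, where 69.6% of all genes did. With the scanner software's log ratios 1 gene passed q in wild-type, Hspa1a, and 0 passed in Trp53-/- cells, against 7.53% and 3.09% of all genes. Hspa1a, whose control channel was not clear of background, was also the 1 gene called over 2-fold (1.79), where 494 of all 20233 genes were called. In that setting Hsp90ab1 changed sign (-0.075 and -0.040) and so did Hspe1 in the difference (-0.0016). That difference also changed sign with offset 16 (-0.0029), with scaling between arrays (-0.0041) and with the mean of a gene's probes (-0.010), under which Hspa8 in Trp53-/- cells was -0.048. The cause of these changes was not tested, beyond the brightness trend described above for median centring. The Benjamini-Hochberg adjustment left 1 gene past q in Trp53-/- cells (Hspd1), against 15.3% of all genes. In the untreated comparison the mean of a gene's probes gave 1 gene past q (Hspe1, lower), against 7.18% of all genes, and the processed signal turned Hsph1 to 0.10.

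With the replicate number as a replicate block, 3 genes passed q in wild-type, 2 in Trp53-/- cells, 0 in the difference and 1 untreated (Hspb1), against 21%, 19.5%, 2.08% and 14.2% of all genes. Same-numbered arrays did not deviate together (correlation -0.18 for ratios and 0.081 for untreated levels), so the numbers were not taken to pair them. A crossed pairing, chosen after seeing the data, gave 4, 3 and 0 genes past q for the 3 PJ34 comparisons, against 31.9%, 30.9% and 5.43% of all genes. Hspa1a is among the 4 and the 3.

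Leaving out 1 array at a time moved several values across 0. Values that changed sign ranged from -0.10 to 0.15 (Hsp90ab1), -0.028 to 0.27 (Hspb1) and -0.34 to 0.14 (Hspe1) in wild-type, and from -0.018 to 0.20 (Hspa8) in Trp53-/- cells. In the difference they ranged from -0.032 to 0.059 (Hspa1a), -0.18 to 0.079 (Hsp90ab1) and -0.23 to 0.25 (Hspe1), and untreated from -0.27 to 0.45 (Hsp90ab1), -0.14 to 0.36 (Dnajb1) and -0.23 to 0.48 (Hspd1). Signal over background limits Hspa1a, and 2 arrays per genotype limit the rest.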
